A study of Mus musculus with 6 samples.

Results

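The genes described here are 9 dual-specificity MAP kinase phosphatases of the mouse: Dusp1, Dusp2, Dusp4, Dusp5, Dusp6, Dusp8, Dusp10, Dusp14 and Dusp16. They were chosen by name, with earlier results of these data known, and every array probe whose only gene symbol is on that list was used. This gave 14 probes for 8 of the 9 genes, out of 38467 probes in all; Dusp5 had no such probe and was not analysed here. The cells were C3H10T1/2, a mouse mesenchymal line that can be turned towards fat, muscle, bone or cartilage. Cultures received 1 µM dexamethasone for 90 minutes or only the solvent DMSO (the vehicle), with 3 biological replicates of each per the series description. Dexamethasone, a synthetic steroid, binds the glucocorticoid receptor and makes it act as a transcription factor. Each of the 6 arrays carried Cy3-labelled cDNA of 1 culture and Cy5-labelled cDNA of a common RNA pool, which the labels describe as RNA of the same line after myostatin, DMSO or dexamethasone. Both groups are the same cell line with no genetic change, so the comparison covers 1 line, 1 dose and 1 time.

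MAP kinases (the ERK, JNK and p38 families) are switched on when a MAP kinase kinase phosphorylates a threonine and a tyrosine in their activation loop. The dual-specificity phosphatases remove both phosphates and thereby end the signal. Many of them are themselves induced by the signal they end, as feedback, and Dusp1 is a textbook target of glucocorticoids, known for its part in their anti-inflammatory action. Members differ in where they sit and what they prefer: Dusp1, Dusp2 and Dusp4 are nuclear, Dusp6 is cytoplasmic and selective for ERK, Dusp8, Dusp10 and Dusp16 favour JNK and p38, and Dusp14 is a small member without the kinase-binding domain.

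Every value is read as a log2 ratio between a culture and the pool, so 0 means the level of the pool and 1 unit is a doubling. The labels do not say whether culture was divided by pool or pool by culture. Culture over pool is taken as likely from 10 textbook glucocorticoid targets outside this family. Of these, 9 had all 3 dexamethasone values above all 3 vehicle values, against 10.4% of all genes. The exception, Zbtb16, had overlapping groups and a difference of -0.40. The list of targets was drawn up with earlier results of these data known, so it is not independent of them. The share of dexamethasone RNA that a pool would need to give the 2 group means does not settle the direction. It was worked out for a pool of vehicle and dexamethasone RNA alone, whereas the labels also name myostatin. For Dusp1 it was 0.328 read this way and 0.903 the opposite way, and for Dusp10 0.545 and 0.375. For Dusp2 it was 2.45 and 2.09, which no such pool can hold. If it was the reverse, every "higher" and "lower" below changes places. Levels of different genes cannot be ranked from such ratios, and the marker genes of the line cannot be checked as present or absent, because the pool is made of the same cells.

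Dusp1 had the largest difference of the family, and Dusp10 the smallest p among its members that were lower with dexamethasone. Dusp8 was picked for its sequence, because it shares with Dusp1 an element that few promoters hold. The promoters of these 3 members are shown. Each is the 250 bases before the transcript start that the RefSeq promoter table uses, 5′ to 3′ on the gene's strand, from RefSeq on GRCm38.p6. The windows are chr17:26508473-26508722 on the minus strand for Dusp1, chr1:184034131-184034380 on the plus strand for Dusp10 and chr7:142095285-142095534 on the minus strand for Dusp8. The start used for Dusp8 lies 623 bases inside the annotated span of the gene, so that window precedes an inner start, while those used for Dusp1 and Dusp10 are at the edge of the gene. Capitals mark every match, on either strand, to the motifs searched: the cAMP response element (CRE) TGACGTCA, its half-site TGACG, the E-box CACGTG, the glucocorticoid receptor half-site TGTTCT, the TATA box TATAAA and the serum response CArG box. The CRE contains the half-site on both strands, so these 2 overlap.
Dusp1: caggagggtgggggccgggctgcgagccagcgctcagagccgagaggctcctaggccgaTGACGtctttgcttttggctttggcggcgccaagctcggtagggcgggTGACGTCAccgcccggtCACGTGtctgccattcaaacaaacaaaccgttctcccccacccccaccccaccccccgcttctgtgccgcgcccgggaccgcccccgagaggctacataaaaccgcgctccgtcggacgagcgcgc
Dusp10: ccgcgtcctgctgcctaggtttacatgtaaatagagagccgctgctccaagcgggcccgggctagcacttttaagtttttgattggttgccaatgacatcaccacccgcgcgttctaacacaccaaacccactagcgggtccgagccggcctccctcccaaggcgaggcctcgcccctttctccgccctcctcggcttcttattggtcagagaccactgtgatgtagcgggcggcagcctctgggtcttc
Dusp8: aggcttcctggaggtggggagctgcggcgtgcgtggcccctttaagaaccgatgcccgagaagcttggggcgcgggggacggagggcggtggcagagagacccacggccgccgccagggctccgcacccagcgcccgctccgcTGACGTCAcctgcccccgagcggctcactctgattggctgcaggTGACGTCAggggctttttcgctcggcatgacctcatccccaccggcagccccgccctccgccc
The Dusp1 window holds a full CRE from -143 to -136, a separate half-site from -191 to -187 and an E-box from -126 to -121, counted from the start site. The Dusp8 window holds a pair of full CREs, from -107 to -100 and from -63 to -56. No match to any of the motifs was found in the Dusp10 window.

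Of the 9 members, 8 had an entry in the RefSeq promoter table; Dusp4 had none. The starts used for Dusp14 and Dusp16 also lie inside the gene, by 899 and 14435 bases. Over the whole 300-base entries, which add 50 bases after the start, the full CRE was found in 2 of the 8 (Dusp1 and Dusp8), against 1.79% of 32851 promoters. Its half-site was found in 5 of 8, Dusp1, Dusp2, Dusp5, Dusp8 and Dusp16, against 20.8%. The E-box was found in Dusp1 and Dusp2 (7.15% of all promoters) and the CArG box in Dusp5 alone (1.63%), at a pair of neighbouring positions. The glucocorticoid receptor half-site (19.0% of all promoters) and the TATA box (13.6%) were found in 0 of the 8. The member entries held from 57.3% (Dusp6) to 73.3% (Dusp8) G and C, against a median of 52.7% for all promoters. The shares over all promoters were not matched for this. A match is a description of the letters, and glucocorticoid receptor sites can lie far outside such a window.

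Before the members, the arrays themselves differed. Between 552 and 4290 probes per array had no value, most of them on the dexamethasone arrays, and the array medians ran from -0.12 to 0.57. Values equal to the log2 of a ratio of whole numbers from 1 to 10, as very dim spots give, made up 1.86% to 3.79% of vehicle replicates 1 and 2 and dexamethasone replicate 1, and 7.73% to 12.7% of vehicle replicate 3 and dexamethasone replicates 2 and 3. These 2 sets of arrays cut across the treatments. The lowest Spearman correlation between 2 arrays over all probes was -0.33, between vehicle replicate 2 and dexamethasone replicate 3. The correlations followed the 2 sets of arrays and not the treatment, with 0.34 to 0.57 within a set and -0.33 to 0.07 between the sets; dexamethasone replicate 1 stood at -0.22 and -0.27 to the other 2 dexamethasone arrays. The typical gene differed too: over the 27046 genes and unnamed probes tested, the dexamethasone minus vehicle difference had a median of 0.32, which became 0.02 once every array was set to a median of 0 (median centring).

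With dexamethasone, Dusp1 was far higher and Dusp10 and Dusp4 were lower, while the other 5 measured members differed by less than 0.5 on the log2 scale in the values as deposited. No member passed the test across all genes as planned. Of everything tested, limma called 0 after Benjamini-Hochberg adjustment at 0.05 (0%), and 1468 had an unadjusted p under 0.05 (5.43%). Among the 8 measured members, 3 were under the unadjusted threshold, which is 37.5%: Dusp1 higher, against 4.43% of all genes in that direction, and Dusp4 and Dusp10 lower, against 0.995%. The 3 dexamethasone values did not overlap the 3 vehicle values for 5 members (62.5%), against 16.9% of all genes: 2 were higher (10.4% of all genes) and 3 lower (6.42%). After median centring this held for 3 members, against 10.3% of all genes: Dusp1, higher (6.43%), and Dusp4 and Dusp10, lower (3.82%). The median difference of the 8 members was -0.12, against 0.32 for all genes. Of the 14 probes, 7 had groups that did not overlap, against 18.2% of all probes. Reassigning 3 against 3 arrays in an exact permutation test gives a p of 0.1 at the least, and none was run.

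**Figure D1:**
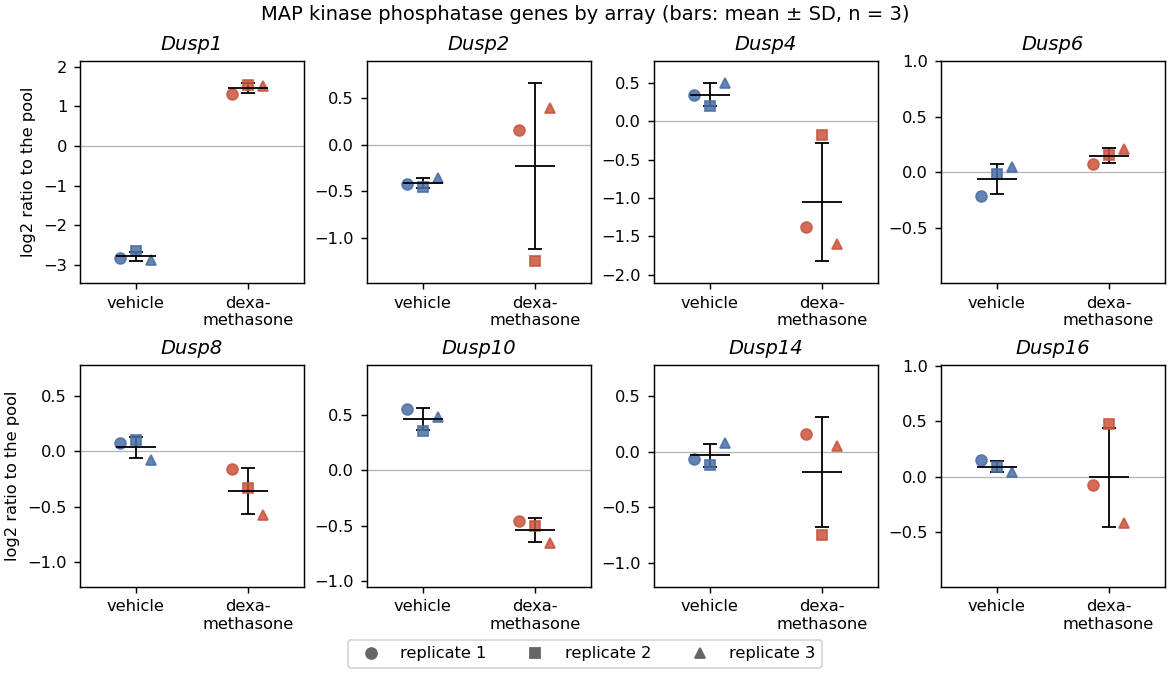
Log2 ratio to the pool (y axis, own scale for each gene) for the 8 measured MAP kinase phosphatase genes in the vehicle and dexamethasone arrays; points are arrays, the shape gives the replicate number, and bars are mean ± SD (n = 3). The groups lie far apart for Dusp1 (-2.79 against 1.46), lie apart by less for Dusp10 and Dusp4, and intermix for Dusp2, Dusp14 and Dusp16.

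Dusp1, or MKP-1, the nuclear phosphatase of p38, JNK and ERK, had log2 ratios of -2.84, -2.67 and -2.88 in vehicle replicates 1 to 3 and of 1.32, 1.55 and 1.52 in dexamethasone replicates 1 to 3. All 3 vehicle cultures were therefore well below the pool and all 3 dexamethasone cultures above it, and the groups lay much further apart than the arrays within either of them (SD 0.11 and 0.12, n = 3 each). The difference was 4.26 ± 0.18 (SE), a 19.1-fold higher level with dexamethasone, with a 95% interval from 3.80 to 4.72. Its p was the smallest of all 27046 genes and unnamed probes, and 99.2% of them had a smaller difference. The limma adjusted p was 0.0556, just outside the threshold.

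A filter on possibly dim probes left out each probe that on at least 1 array had no value, matched a whole-number ratio or exceeded 10 in size. On the 17152 genes and unnamed probes that remained, Dusp1, measured by the same single probe, passed with a limma adjusted p of 0.00744; 29 genes or probes passed in all (0.169%), 26 of them higher (0.152%). The passing depended on the fit: the adjusted p for Dusp1 in the filtered set was 0.0799 after median centring. With the 2 sets of arrays as a block it was 0.0589, and after quantile normalization 0.509. It was 0.177, 0.188 and 0.230 without vehicle replicate 1, 2 or 3, 0.0768 without dexamethasone replicate 3, and 0.0214 and 0.0426 without dexamethasone replicate 1 or 2. The difference itself moved little, from 3.95 to 4.41 over all alternatives. Within the arrays with few whole-number ratios, which hold a single dexamethasone array, it was 4.07. Within the others, which hold a single vehicle array, it was 4.41.

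Dusp10, or MKP-5, which acts on JNK and p38, stood at 0.55, 0.35 and 0.48 in vehicle replicates 1 to 3 and at -0.46, -0.50 and -0.66 in dexamethasone replicates 1 to 3. Every vehicle culture was above the pool and every dexamethasone culture below it. The difference was -0.997 ± 0.174 (SE), 2.00-fold lower with dexamethasone, with a 95% interval from -1.44 to -0.55. Its limma unadjusted p was 0.00213 and its adjusted p 0.369, so it did not pass; it ranked 152 by p. After the filter on dim probes the limma adjusted p was 0.123. Without dexamethasone replicate 1 and with that filter it was 0.0410, at a difference of -1.04. The difference was -0.91 within the arrays with few whole-number ratios and -1.06 within the others. Quantile normalization moved the difference to -2.05.

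Both probes of Dusp10 pointed the same way. Probe mMC018263 went from 0.67, 0.45 and 0.58 to -0.35, -0.83 and -0.91, a difference of -1.26 ± 0.22 (SE). Probe mMA035217 went from 0.42, 0.26 and 0.37 to -0.57, -0.17 and -0.40, a difference of -0.73 ± 0.18 (SE). Neither probe's groups overlapped, although the dexamethasone array nearest to vehicle was replicate 1 for the former and replicate 2 for the latter. A shift of a whole array cancels in the gap between Dusp1 and Dusp10 on that array, which was -3.39, -3.02 and -3.35 in vehicle and 1.78, 2.05 and 2.18 in dexamethasone. The mean gap thus differed by 5.25 between the groups, whatever the centring of the arrays.

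Dusp4, or MKP-2, a nuclear phosphatase close in sequence to Dusp1, had gene averages of 0.35, 0.19 and 0.49 in vehicle replicates 1 to 3 and of -1.37, -0.18 and -1.60 in dexamethasone replicates 1 to 3. The groups did not overlap, but dexamethasone replicate 2 lay far nearer to vehicle than the other 2. The difference was -1.39 ± 0.43 (SE), 2.63-fold lower with dexamethasone, with a 95% interval from -2.49 to -0.30, a limma unadjusted p of 0.0221 and an adjusted p of 0.732. Without dexamethasone replicate 2 it was -1.83, and after quantile normalization -2.24. It was -1.64 within the arrays with few whole-number ratios and -1.38 within the others.

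The average hides a disagreement among its 3 probes. Probe mMC002199, assigned to Dusp4 through a single cDNA and not through the RefSeq transcript, went from 0.61, 0.39 and 0.60 to -1.43, -2.29 and -1.71, a difference of -2.34 ± 0.27 (SE). Probe mMC005797, assigned through the RefSeq transcript, went from 0.53, 0.36 and 0.68 to -1.73, 1.84 and -2.52; its dexamethasone replicate 2 was the highest of the 6 arrays and the other 2 the lowest. Probe mMA032076, also assigned through that transcript, went from -0.10, -0.17 and 0.20 to -0.96, -0.08 and -0.59, a difference of -0.52 ± 0.29 (SE) with overlapping groups. The values of mMC005797 and mMA032076 in dexamethasone replicate 2 thus gave the gene its nearness to vehicle there, while mMC002199 was at its lowest on that array.

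The filter on dim probes left only mMC002199 for Dusp4, with a difference of -2.34 ± 0.26 (SE) and a limma adjusted p of 0.0748, which was 0.0334 without dexamethasone replicate 1. Each of the other 2 probes was left out for 1 value that equals a whole-number ratio, in vehicle replicate 2 for mMC005797 and in dexamethasone replicate 3 for mMA032076. Such a match can be a coincidence. The extreme value of mMC005797 was not what removed it.

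**Figure D2:**
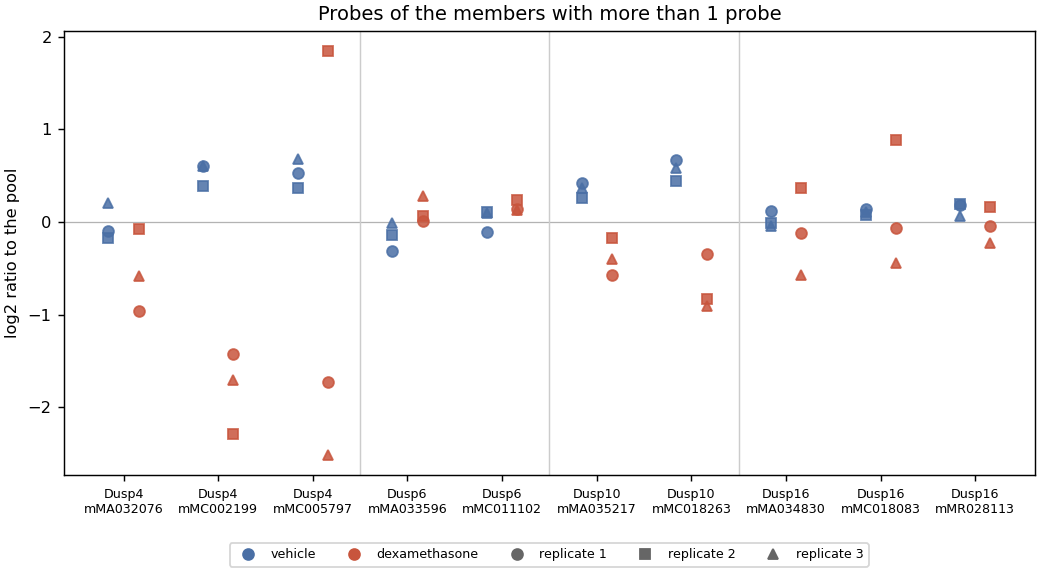
Log2 ratio to the pool (y axis) on each array for the 10 probes of the 4 members with more than 1 probe; colour gives the group, shape the replicate number. Both Dusp10 probes separate the groups, while the Dusp4 probes differ in size and mMC005797 has dexamethasone replicate 2 at 1.84, above every vehicle value.

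Dusp8, which acts on JNK and p38, stood at 0.08, 0.10 and -0.08 in vehicle and at -0.16, -0.33 and -0.57 in dexamethasone. The groups did not overlap, but the nearest values of the 2 groups were less than 0.1 apart. The difference was -0.39 ± 0.20 (SE), with a 95% interval from -0.89 to 0.11 and a limma adjusted p of 0.732. After median centring the groups overlapped and the difference was -0.70.

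Dusp6, or MKP-3, the cytoplasmic ERK phosphatase whose transcription is known to follow ERK activity, stood at -0.21, -0.01 and 0.04 in vehicle and at 0.08, 0.15 and 0.21 in dexamethasone. The values lay close to the pool in all 6 cultures, with dexamethasone just above vehicle. The difference was 0.21 ± 0.17 (SE), with a 95% interval from -0.24 to 0.65, and it turned to -0.10 after median centring. Its probes gave 0.27 and 0.14. The whole interval lies far below that of Dusp1.

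Dusp2, or PAC-1, a nuclear phosphatase best known from activated lymphocytes, stood at -0.42, -0.46 and -0.36 in vehicle and at 0.16, -1.25 and 0.40 in dexamethasone. Dexamethasone replicates 1 and 3 were above every vehicle value and replicate 2 was below every one. The difference was 0.18 ± 0.48 (SE), with a 95% interval from -1.05 to 1.42, too wide to place the gene on either side.

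Dusp14, the small member, stood at -0.06, -0.12 and 0.08 in vehicle and at 0.15, -0.75 and 0.06 in dexamethasone, a difference of -0.15 ± 0.30 (SE) with a 95% interval from -0.92 to 0.63. Again only dexamethasone replicate 2 lay apart from the rest. Dusp16, or MKP-7, which acts on JNK, stood at 0.15, 0.09 and 0.04 in vehicle and at -0.08, 0.47 and -0.42 in dexamethasone, a difference of -0.10 ± 0.28 (SE) with a 95% interval from -0.81 to 0.62. Its 3 probes differed by -0.13, 0.02 and -0.18, and on mMA034830 and mMC018083 dexamethasone replicate 2 was the highest of the 6 arrays.

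**Figure D3:**
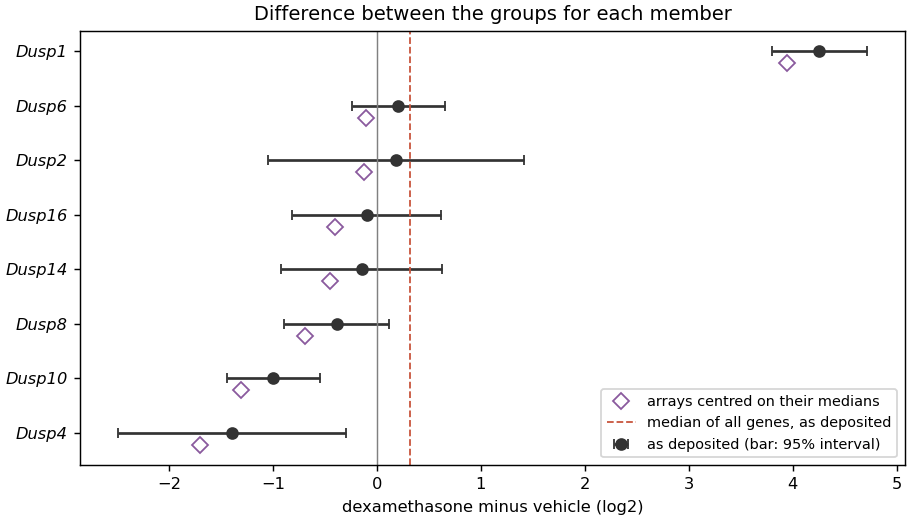
Dexamethasone minus vehicle difference (x axis, log2) for each measured member; filled points with bars are the limma estimates and 95% intervals on the values as deposited, open diamonds the same after median centring, and the dashed line the median of all genes (0.32). Dusp1 stands alone at 4.26, the intervals of Dusp10 and Dusp4 lie below 0, and centring moves all members down by about 0.3, which takes Dusp6 and Dusp2 across 0.

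In order of their differences the members ran from Dusp1 through Dusp6, Dusp2, Dusp16, Dusp14, Dusp8 and Dusp10 to Dusp4. The intervals of Dusp6, Dusp2, Dusp16, Dusp14 and Dusp8 overlapped each other and included 0. Those of Dusp10 and Dusp4 lay below 0 and overlapped each other as well as those of Dusp8, Dusp14, Dusp2 and Dusp16, and that of Dusp1 overlapped none. The spread among the 3 arrays was larger in dexamethasone than in vehicle for 7 of the 8 members, Dusp6 being the exception.

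Genes with the pattern most like that of Dusp1 were sought among 10619 named genes with no dim probe, as the smallest Euclidean distance over the 6 centred arrays. The nearest were Glul (glutamine synthetase) at 1.24, C1qtnf7 (a secreted C1q-related protein) at 1.37, Fkbp5 (an Hsp90 co-chaperone that acts on steroid receptors) at 1.45, Mt2 (a metallothionein) at 1.83 and Tcim at 2.00, with Pearson r from 0.962 to 0.997 over the 6 arrays. For Dusp10 they were Cavin4 at 0.297, Tlr2 (an innate immune receptor) at 0.299, Ankrd28 at 0.384, Klf3 (a transcriptional repressor) at 0.400 and Filip1l at 0.401, with r from 0.977 to 0.995. These are descriptions of 6 values per gene, which share the treatment and the array quality.

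The rest of the MAP kinase cascade was read from lists drawn up by role. Of the MAP kinases themselves 11 of 14 were measured and 0 were under an unadjusted p of 0.05; their differences ran from -0.37 to 0.76 with a median of 0.21, against 0.32 for all genes. The JNK genes Mapk8 and Mapk9 differed by 0.21 ± 0.20 and -0.37 ± 0.22 (SE), and the p38 gene Mapk14 by 0.16 ± 0.20 (SE). After median centring or quantile normalization Mapk8 and Mapk14 were below 0. After the filter on dim probes their differences were 0.56 and 0.03. Of 6 MAP kinase kinases, 7 scaffold genes and 9 phosphatases of other classes that act on MAP kinases, 0 were under that threshold, which 5.43% of all genes met.

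Among 17 measured MAP kinase kinase kinases, an unadjusted p under 0.05 was found for 2, both higher, against 4.43% of all genes in that direction. After adjustment over all genes 0 of them passed. Map3k6, a stress-activated kinase upstream of JNK and p38, stood at -1.42, -1.08 and -1.66 in vehicle and at 0.36, 0.65 and 0.23 in dexamethasone, 3.48-fold higher (limma adjusted p = 0.239). No probe of Map3k6 passed the filter on dim probes. Map3k8 (Tpl2), which feeds ERK in inflammatory signalling, differed by 1.17 ± 0.41 (SE). Among 8 measured kinases activated by MAP kinases, 2 had an unadjusted p under 0.05, both higher, against 4.43% of all genes in that direction, and 0 passed after adjustment. They were Mknk2, which phosphorylates the translation factor eIF4E, with a difference of 1.12 ± 0.18 (SE), and Rps6ka5 (MSK1), a nuclear kinase of histone H3 and CREB, with 0.87 ± 0.32 (SE). Of 15 other dual-specificity phosphatases 1 was under the threshold and higher, against 4.43% of all genes in that direction, and 0 passed after adjustment. It was Dusp7, an ERK phosphatase close to Dusp6, with a difference of 0.60 ± 0.23 (SE) that was 0.29 after median centring.

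Genes known to follow ERK activity lay on both sides. Of 19 measured, 8 had an unadjusted p under 0.05, with 2 higher and 6 lower, against 4.43% and 0.995% of all genes, and 0 passed after adjustment. The transcription factor genes Egr2 (-1.13 ± 0.23, SE), Egr1 (-0.96 ± 0.24) and Etv5 (-0.79 ± 0.19) were lower, with no overlap between the groups, and Myc was higher by 0.56 ± 0.18 (SE). The list's median was 0.08, which is -0.24 relative to all genes.

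Of 20 genes downstream of JNK and p38, 6 had an unadjusted p under 0.05, with 2 higher and 4 lower, against 4.43% and 0.995% of all genes. In the planned fit 0 passed after adjustment, and the list's median was 0.08. The chemokine gene Ccl7 went from 0.11, 0.13 and 0.39 to -2.29, -1.96 and -2.03, and Ccl2 from 0.20, 0.24 and 0.47 to -1.71, -1.36 and -1.43. After the filter both passed, with limma adjusted p of 0.0401 and 0.0487. Neither passed when the filter was combined with median centring (0.0799 and 0.168), quantile normalization, a block of array sets or replicate numbers, or the loss of any array other than dexamethasone replicate 1, without which they stood at 0.0304 and 0.0327. Ptgs2, which encodes cyclooxygenase-2, differed by -1.27 ± 0.18 (SE). Zfp36, which encodes the mRNA-destabilising protein tristetraprolin, went the other way, by 1.52 ± 0.21 (SE).

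**Figure D4:**
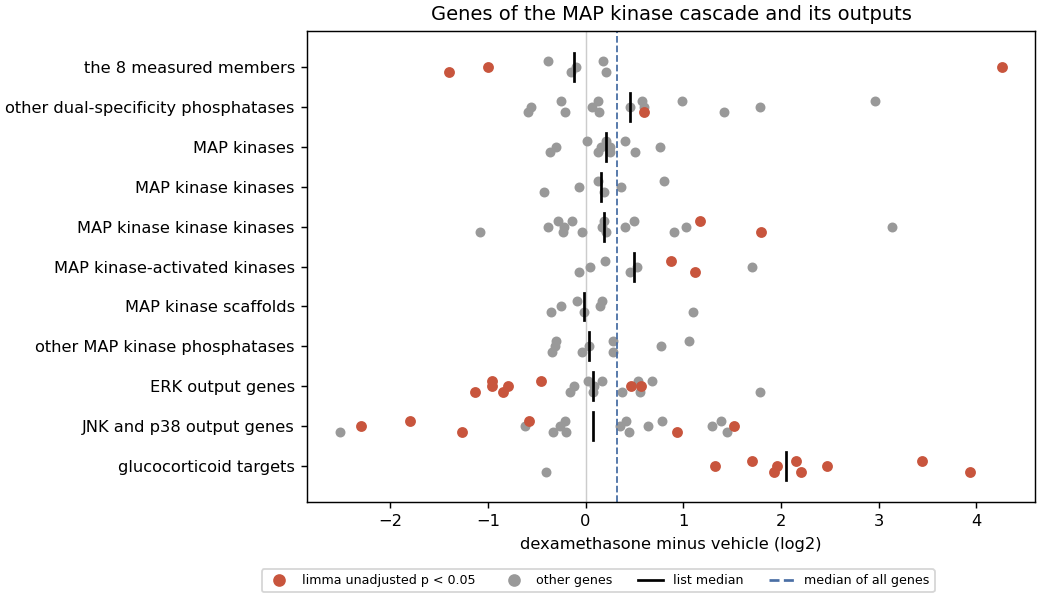
Dexamethasone minus vehicle difference (x axis, log2) of each measured gene of the 8 members and of the lists of cascade, output and glucocorticoid target genes; red points have a limma unadjusted p under 0.05, black ticks are list medians and the dashed line is the median of all genes (0.32). The medians of the 7 lists of cascade genes and other phosphatases lie between -0.01 and 0.49 and those of both output lists at 0.08, with single genes far to either side, and the median of the glucocorticoid targets lies at 2.05.

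The glucocorticoid targets, as the reference for the treatment, had an unadjusted p under 0.05 for 9 of 10, all 9 higher, against 4.43% of all genes. Their median was 2.05, and in the planned fit 0 passed after adjustment. Glul (3.45 ± 0.17, SE), Fkbp5 (3.93 ± 0.35), the clock gene Per1 (2.21 ± 0.23) and the transcription factor gene Klf9 (1.93 ± 0.17) had the smallest p. Of these, Klf9 had no probe that passed the filter on dim probes. The sign of the glucocorticoid targets is part of the basis for the direction, so it is no separate support for it. Of 12 measured markers of blood, endothelial and epithelial cells 1 was under the threshold, Cd3e, which was higher, against 4.43% of all genes. Cd3e had values on only 2 dexamethasone arrays. The median of these markers was 1.31, and only 5 of them had a probe that passed the filter. Of 10 mesenchymal markers 8 had a difference below 0, against 8600 of all 27046 genes and unnamed probes. All dexamethasone values lay below all vehicle values for 3 of them, against 6.42% of all genes. Under the unadjusted threshold was 1, Twist1 (-0.98 ± 0.26, SE, limma adjusted p = 0.697), against 0.995% of all genes in that direction. The median was -0.47. The part of these markers in the members' differences was not tested.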

How the data were processed

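The deposited table holds 1 signed value per probe and array, treated here as a log2 ratio of the 2 dyes but recorded as a score, because on 4 arrays some deposited values are far too large for such a ratio. The submitters' processing notes name limma. For background correction, normalization and the genome build of the array, the sources used here give no detail. Probes were named through the platform annotation: 29456 of 38467 had 1 symbol, 760 several and 8251 were unlisted. A RefSeq gene table held the Entrez identifiers of 28735 and altered 0 of their symbols.

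Probes of 1 symbol were averaged per gene, and 2 values per group were required, leaving 27046 genes and unnamed probes. These were fitted together in limma 3.58.1 (R 4.3.3; lmFit and eBayes, two-sided, Benjamini-Hochberg over all of them at 0.05), as dexamethasone minus vehicle, without a block. A fold is the antilog of the difference. The pool cancels only if all arrays carried the same pool, which was not verified. On simulated data for this comparison, with 22549 genes measured on all arrays, 0%, 16%, 44% and 50% of 50 genes each changed by 1, 2, 3 and 4 log2 units were recovered, with 4 false calls. After the filter on dim probes, on 17152, recovery was 14%, 56%, 56% and 72% with 11 false calls. The simulated noise was independent between arrays and held no sets of arrays or array shifts, so these figures need not carry over to the real arrays. The number of arrays limits the precision.

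The members and gene lists were chosen with earlier results of these data known. The named genes are all members, up to 4 genes per list with an unadjusted p under 0.05 and the smallest p, MAP kinases picked by name (not all are reported here) and the 5 nearest patterns to Dusp1 and Dusp10. Promoter motifs were searched as exact matches on both strands. The replicate numbers were checked for pairing. Same-numbered arrays' deviations from their group means correlated by 0.30, -0.10 and 0.24 over 22549 genes, and different-numbered ones by -0.37 to 0.20. The higher values lay within the 2 sets of arrays, so this check cannot decide whether the numbers are pairs. The main fit did not use them as pairs, and a fit with them as a block was an alternative. Alternatives were centring, quantile normalization, probe filters, other probe averaging, array weights, a robust prior, blocks and leaving out each array. Fits that combine the filter with a left-out array, a block or quantile normalization were chosen after seeing the data.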

Additional observations from a re-analysis of the deposited data

How the results depend on the processing

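Over the alternatives run, the differences of Dusp1, Dusp4, Dusp8 and Dusp10 kept their sign in all fits, from 3.95 to 4.41, -3.66 to -0.52, -0.81 to -0.25 and -2.05 to -0.73. With the filter on dim probes 29 of 17152 genes and unnamed probes passed, and with only probes measured on all arrays 5 of 22776. Of the members 1, Dusp1, passed in both, at 4.26 in each with limma adjusted p of 0.00744 and 0.0235. Within the arrays with few whole-number ratios 2 genes passed and within the others 14, with 0 members in either. At an unadjusted p under 0.05 the count over all genes was 801 with the filter and centring, 3269 with array weights and 3255 within the arrays with few whole-number ratios, and that of members was 1 within the others. The counts within either set of arrays come from fits with a single dexamethasone or a single vehicle array. The member count of 1 comes from the latter fit, so it cannot be set against the all-gene counts of the other fits. Members whose groups did not overlap numbered 3 after median centring, quantile normalization, or the filter with median centring. The share over all genes in these was 10.3%, 10.0% and 9.68%.

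Leaving out 1 array, the count over all genes was 0 to 0 after adjustment and 695 to 6947 at an unadjusted p under 0.05, the extremes being without vehicle replicate 2 and without dexamethasone replicate 1. With the filter and 1 array left out, 0 to 934 of 17152 genes and unnamed probes passed, with 0 to 3 of 8 members. The 934 and the 3 (Dusp1 4.33, Dusp4 -2.53 and Dusp10 -1.04) came without dexamethasone replicate 1. There the remaining dexamethasone arrays both have many whole-number ratios. Without dexamethasone replicate 2, 5 of 17152 passed, Dusp1 (4.22) among them. Dusp1 ran from 4.22 to 4.33. Whether the replicate numbers pair the arrays could not be decided. With them as a replicate block 0 genes and 0 members passed, and Dusp1 stood at 4.26 (limma adjusted p 0.711). In that fit 1303 of 26726 genes and unnamed probes and 2 of the 8 members had an unadjusted p under 0.05. With the filter the block took the 29 passing genes to 0 (Dusp1 limma adjusted p 0.536).

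Signs turned only for members near 0. Dusp6 was -0.10 and Dusp2 -0.12 after median centring, with or without the filter. Dusp2 was -0.0695 within the arrays with many whole-number ratios, -0.0122 without dexamethasone replicate 1, and ran from -0.13 to 0.69 with 1 array left out (lowest without dexamethasone replicate 3, highest without replicate 2). Dusp14 was 0.25 within those with few and ran from -0.31 to 0.14, the latter without dexamethasone replicate 2. Dusp16 ran from -0.34 to 0.11, the latter without dexamethasone replicate 3, and was 0.0177 by probe mMC018083. The cause was not tested. With every sign turned, 269 of the 1468 would be higher and 1199 lower.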

Other observations

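Dexamethasone replicate 2 stood apart from the other arrays for several members, and not in a single direction. As deposited it held the lowest value of the 6 arrays for Dusp2 (-1.25) and Dusp14 (-0.75). For Dusp4 it lay above the other dexamethasone arrays (-0.18 against -1.37 and -1.60). Its array median of 0.57 was the highest, so median centring lowered its values the most. After centring it was the lowest of the 6 arrays for Dusp2 (-1.82), Dusp14 (-1.32), Dusp6 (-0.42) and, narrowly, Dusp10 (-1.074 beside -1.065 in replicate 3). As deposited its Dusp6 value (0.15) lay between those of the other dexamethasone arrays. For Dusp1 it was the highest dexamethasone value as deposited (1.55). After centring it was the lowest of them at 0.97, beside 1.44 and 1.12, and still over 3 units above every vehicle value. Without this array the groups of 7 of the 8 members did not overlap in the values as deposited, against 5 with it; the share of all genes without overlap also went from 16.9% to 25.1%.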
